A study of Homo sapiens with 12 samples.

Results

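The results concern 33 genes of sterol and fatty acid synthesis. They are 5 regulators of the SREBP transcription factors (SREBF1, SREBF2, SCAP, INSIG1, INSIG2), 7 enzymes of the mevalonate and isoprenoid steps (ACAT2, HMGCS1, MVK, PMVK, MVD, IDI1, FDPS) and 11 enzymes from squalene to cholesterol (FDFT1, SQLE, LSS, CYP51A1, TM7SF2, MSMO1, NSDHL, HSD17B7, EBP, SC5D, DHCR7). The others are the sterol carrier STARD4, 8 enzymes of fatty acid and acetoacetyl-CoA metabolism (ACLY, ACACA, FASN, SCD, ELOVL6, FADS1, FADS2, AACS) and lipoprotein lipase (LPL). The genes were picked by name from their known roles, with earlier results of these data known, so the choice is not independent of the data. All 33 were found among the 58302 genes of the count table, and all 33 were above the low-count limit that 23238 genes met.

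RNA with poly(A) tails was sequenced from sorted cells of PC3 and 22Rv1, which are human prostate cancer cell lines. PC3 came from a bone metastasis and does not depend on androgen, and 22Rv1 came from a xenograft and expresses the androgen receptor. Each line received, by lentivirus from an MSCV vector, eGFP alone, wild-type ETV4 with eGFP (ETV4WT) or a mutated ETV4 with eGFP (ETV4AAA), and live eGFP-positive cells were collected after 1 week. This gives 6 groups with 2 libraries each, and eGFP is the control in each line. Which residues differ in ETV4AAA was not given in the sources used here, and the counts do not separate the introduced ETV4 from the cell's own. The labels do not say that the 2 libraries of a group are separate cultures, so the tests measure the spread between these libraries, which may be technical.

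Cells make cholesterol from acetyl-CoA through mevalonate, farnesyl diphosphate, squalene and lanosterol, and they make fatty acids from the same acetyl-CoA through malonyl-CoA. Both branches are controlled by the SREBP factors, which SCAP carries from the endoplasmic reticulum to the Golgi for cleavage when sterols are low, while INSIG proteins hold SCAP back when sterols are high. Prostate cancer cells are known for active lipid synthesis, which androgen signalling promotes. ETV4 is an ETS transcription factor of the PEA3 group.

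The promoter of SREBF2, the gene of the SREBP family member known mainly for sterol synthesis genes, is shown because it alone held the core letters of a sterol regulatory element. RefSeq promoters of GRCh38.p14, from 250 bases before to 50 after a transcript start, were at hand for 28 of the 33 genes, all but ACAT2, FASN, FDFT1, SQLE and LPL. The stretch below runs from -179 to -80 from the start of SREBF2, at chr22:41832926-41833025 on the plus strand, 5′ to 3′, with the match to TCACNCCAC in capitals.
SREBF2: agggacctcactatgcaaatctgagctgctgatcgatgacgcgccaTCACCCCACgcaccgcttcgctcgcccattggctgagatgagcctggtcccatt
The match lies at -133 to -125, and a CCAAT box on the other strand lies at -106 to -102.

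Promoters were searched on both strands for that core and for 3 other short motifs, none of which contains another, though matches may overlap in position. TCACNCCAC was in 1 of 28 member genes (3.57%) and in 1.51% of 15843 protein-coding genes with a promoter of the same length. The CCAAT box, which the factor NF-Y binds beside SREBP sites, was in 20 of 28 (71.4%) against 42.1% of all. The GC box GGGCGG, to which Sp1 binds, was in 27 of 28 (96.4%) against 64.3%. The ETS sequence CCGGAAGT was in 1 of 28 (3.57%) against 6.98%, and that gene was IDI1, where 1 promoter held 3 matches. These are counts of letters in a window. They show no binding, and a missing match says only that these letters were not in the window.

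The libraries held 43572713 to 51199207 counts in PC3 and 41698738 to 50226044 in 22Rv1. In 22Rv1, ETV4 was at 31.2 and 24.9 CPM (counts scaled by library size) in the eGFP libraries, at 385 and 484 with ETV4WT and at 390 and 281 with ETV4AAA. In PC3 it was at 116 and 126 CPM with eGFP, but at 215 and 112 in the libraries labelled ETV4WT and at 223 and 109 in those labelled ETV4AAA. Both replicate 2 construct libraries of PC3 were thus below both eGFP libraries, so PC3 groups are given as "libraries labelled" with a construct, and values without these 2 libraries are added. A fit without them holds 1 library in each PC3 construct group, and a fit without any 1 library holds 1 in that group. The p-values of such fits take their spread from the other groups, so they are no stronger check than those of the full fit. CAV2, a PC3 marker, was at 40.1 and 38.4 CPM in PC3 eGFP. It was at 80.8 and 89.4 in the libraries labelled ETV4WT and at 108 and 118 in those labelled ETV4AAA. For this gene both replicates were thus above eGFP. Why ETV4 was lower in replicate 2 was not tested. Markers separated the lines: KLK3 was at 0 in every PC3 library and at 19.8 to 53.3 CPM in 22Rv1, whereas VIM was at 473 to 640.1 CPM in PC3 and at 6.24 to 12.5 in 22Rv1. Of the immune markers, PTPRC was at most 0.258 CPM and CD3E at most 0.0237, while 3 endothelial markers summed to 12.4 to 22.5 CPM in PC3 and to at most 0.831 in 22Rv1. The summed level of 4 PC3 markers was 129 and 140.4 CPM in 22Rv1 with eGFP, 266 and 259 with ETV4WT and 454 and 452 with ETV4AAA. Most of this sum was CD44, at 120 and 129, 255 and 249, and 430 and 427 CPM. With ETV4WT, CAV1 (2.70 and 2.04 CPM) and CAV2 (0.544 and 0.286) overlapped eGFP (2.32 and 3.85, 0.369 and 0.556). VIM was then at 7.75 and 7.41 CPM against 6.24 and 7.23. With ETV4AAA each of the 4 was above both eGFP libraries. The summed level of 4 luminal markers was 504 and 522, 690.0 and 662, and 359.5 and 376 CPM in the same order, although KLK3, 1 of these 4, was at 20.5 and 19.8 CPM with eGFP, at 53.3 and 48.6 with ETV4WT and at 31.1 and 29.2 with ETV4AAA. The part of these markers in the results was not tested.

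The 2 libraries of a group differed for the lipid genes with the GC content of the transcript, which ran from 34.2% in STARD4 to 65.6% in MVD. In the PC3 libraries labelled ETV4WT, FASN (65.3% GC) was 1.37 log2 units lower in replicate 2, while STARD4 was 0.318 higher. Across the 33 genes the Spearman correlation of this replicate difference with GC content was -0.874 in PC3 ETV4WT, -0.773 in PC3 ETV4AAA, -0.832 in 22Rv1 eGFP and -0.728 in 22Rv1 ETV4AAA. It was 0.728 in PC3 eGFP and 0.574 in 22Rv1 ETV4WT, where the order of the libraries was the other way. The genes of each pair of libraries come from 1 pair of libraries and share its depth, so these values only describe the libraries. Over 23155 genes with a known GC content the 6 values ran from -0.632 to 0.252. Because of this pattern a second fit, chosen after seeing the data, removed a smooth GC trend from each library. The trend was fitted to each library's deviation from the mean of its line, so GC trends between the lines stay. Order by GC content was not gone from every comparison after this. The counts the fit gave stand beside each comparison of the 33 genes. ETV4 itself was higher in replicate 2 than in replicate 1 in PC3 eGFP and 22Rv1 ETV4WT, and lower in the other groups. Whether its levels carry the same library pattern was not tested.

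**Figure D1:**
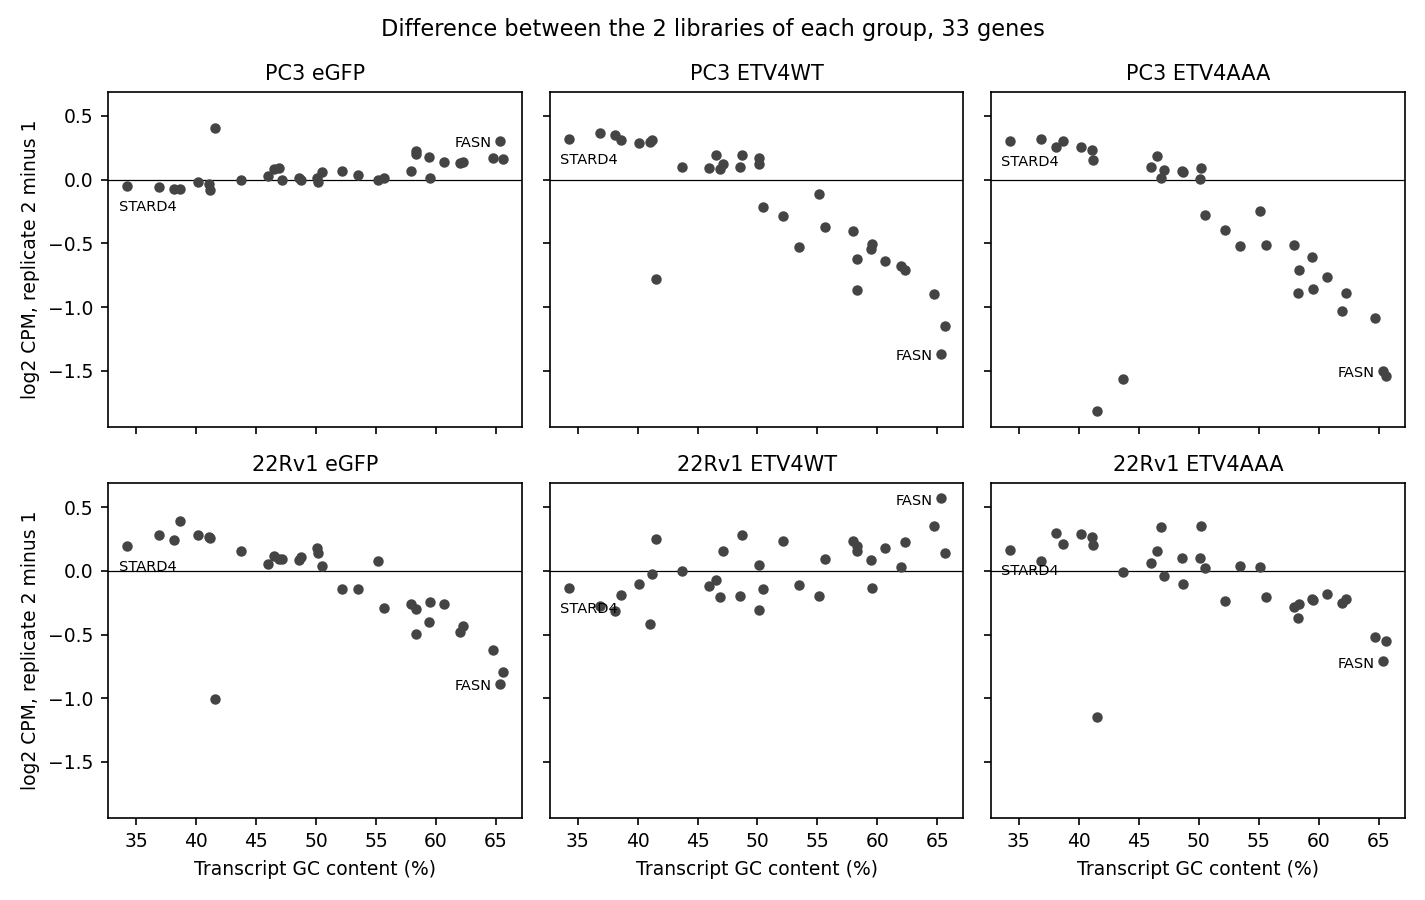
Each point is 1 of the 33 genes, with transcript GC content (%) on the x axis and replicate 2 minus replicate 1 in log2 CPM on the y axis, 1 panel per group. In PC3 ETV4WT the points fall from 0.318 at STARD4 to -1.37 at FASN, and CYP51A1, at 41.5% GC, lies below genes of like GC content at -0.782.

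The value of CYP51A1, the lanosterol demethylase, is uncertain. Its replicate difference was -1.82 in PC3 ETV4AAA and -1.01 in 22Rv1 eGFP, although its GC content is low. Its level was 0.406 to 6.08 CPM, and 79.3% of its exon bases are shared with AC000120.2 on the same strand, so most of its reads cannot be assigned to it alone. ACAT2, acetoacetyl-CoA thiolase of the cytosol, overlaps SOD2 on the opposite strand over 26.5% of its exon bases. On that strand it also overlaps SOD2-OT1 over 33.9% and TCP1 over 9.23%. FDPS shares 18.6% with RUSC1-AS1, HMGCS1 shares 14.9% with AC114947.2 and IDI1 shares 14.8% with IDI2-AS1. Whether the counting used strand was not given in the sources used here, so reads of these overlaps cannot be told apart.

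The eGFP cells show the level from which each line started. Per length of transcript, SCD, the desaturase that makes oleate, was the highest of the 33 in both lines, at 303 ± 0.104 RPKM (CPM per kilobase of exon; SD, n = 2) in PC3 and 459 ± 20.9 in 22Rv1. In PC3 the next were ACLY (77.6 ± 2.46), FADS2 (57.8 ± 3.90), DHCR7 (52.9 ± 5.10) and FDFT1 (46.3 ± 0.211). FADS2 and DHCR7 did not differ beyond their spread. In 22Rv1 the next were FDFT1 (248 ± 10.3), EBP (109 ± 7.70), ACLY (102 ± 7.03) and INSIG1 (82.2 ± 2.04), and EBP and ACLY did not differ beyond theirs. LPL, which frees fatty acids from lipoproteins outside the cell, was at 0 counts in both PC3 eGFP libraries and at 0.985 ± 0.0754 RPKM in 22Rv1.

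Between the lines, 18 of the 33 genes were higher and 6 lower in 22Rv1 eGFP than in PC3 eGFP at a Benjamini-Hochberg adjusted p under 0.05 in edgeR's quasi-likelihood test. That is 72.7% of the 33, near the 70.9% of all genes tested (34.9% higher and 36.0% lower), so the count says nothing particular of these genes. Their median log2 difference was 0.60. With upper-quartile scaling, which moved the median of all genes by 0.32, 25 were higher and 4 lower, since SQLE and NSDHL no longer passed. The regulators SREBF2 (198 and 208 CPM in PC3, 655 and 545 in 22Rv1) and INSIG1 (111 and 113 against 295 and 305) were higher in 22Rv1, with log2 differences of 1.56 ± 0.19 (SE) and 1.42 ± 0.11. INSIG2 went the other way, with 25.2 and 24.2 CPM in PC3 and 8.59 and 10.4 in 22Rv1. FDFT1, squalene synthase, was at 240.1 and 242 CPM in PC3 and at 1250.7 and 1327 in 22Rv1, a 5.35-fold difference. The sterol reductase TM7SF2 was 8.36-fold higher in 22Rv1 and SC5D, the sterol desaturase, 3.39-fold lower. FADS2, which starts the synthesis of long polyunsaturated fatty acids, was 3.27-fold lower in 22Rv1, at 212 and 177 CPM against 607 and 667. LPL had 420 counts in the 22Rv1 libraries together and 0 in PC3, so with the PC3 group set to 3 counts, the limit that 0 allows, it was at least 138-fold higher, and the exact 95% interval of the ratio began at 112 (counting error only). The calls of NSDHL (adjusted p = 0.0337) and ACLY (0.0391) were lost without each of the 4 libraries in turn. HMGCS1 lost its call without eGFP replicate 2 of 22Rv1, LSS without replicate 1 and HSD17B7 without eGFP replicate 1 of PC3, with adjusted p of 0.0653, 0.0509 and 0.0518. Removing the GC trend gave 23 higher and 6 lower genes, when 78.9% of all genes were called. SCAP, MVD, FASN, FADS1 and DHCR7 then passed as higher, DHCR7 at 0.28 where it had been at -0.03. That trend was fitted within each line, so it leaves a GC trend between the lines. Over the 33 genes the Spearman correlation of this difference with GC content was 0.249 before the removal and 0.44 after it.

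In 22Rv1 with ETV4AAA, enzymes of each branch of the pathway were lower than with eGFP: SCD was 2.39-fold lower, ACAT2 2.02-fold, ELOVL6 1.98-fold and HMGCS1 1.79-fold. In all, 10 of the 33 genes were lower and 2, STARD4 and LPL, were higher. The 12 genes are 36.4% of the 33, near the 31.8% of all genes tested that were called in this comparison. The 10 lower ones are 30.3%, against 14.4% of all genes called lower. The median log2 change of the 33 was -0.41 and that of all genes tested 0.00, and 26 of the 33 changes were below 0. Since the genes were chosen with earlier results of these data known, these shares describe the list and support no further statement. In bulk RNA, fewer cells of a kind and less RNA per cell cannot be told apart.

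Among the regulators, INSIG1, the sterol-dependent anchor of SCAP and itself a gene that SREBP factors induce, was at 295 and 305 CPM with eGFP and at 170.5 and 178 with ETV4AAA. Both ETV4AAA libraries were below both eGFP libraries, and the log2 change was -0.78 ± 0.10 (adjusted p = 0.000125). SREBF1, which encodes the SREBP form known for fatty acid genes, was at 256 and 166 CPM with eGFP and at 142 and 99.2 with ETV4AAA. These groups did not overlap either, but the change of -0.81 ± 0.36 did not pass (adjusted p = 0.106). With the GC trend removed it was -0.90 and passed (adjusted p = 6.99e-08). SREBF2 was at 655 and 545 CPM against 499 and 409, a change of -0.40 ± 0.19 (adjusted p = 0.134) that also passed with the GC trend removed, at -0.44 (adjusted p = 0.000196). SCAP and INSIG2 overlapped between the groups, with adjusted p of 0.653 and 0.981.

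Of the 7 mevalonate and isoprenoid enzymes, 3 fell, and all 7 passed as lower with the GC trend removed. HMGCS1, which makes HMG-CoA, was at 228 and 277 CPM with eGFP and at 127 and 155 with ETV4AAA, a log2 change of -0.84 ± 0.15 (adjusted p = 0.00122). ACAT2, which makes the acetoacetyl-CoA used by HMGCS1, went from 124 and 136 CPM to 56.5 and 72.1, a change of -1.02 ± 0.15 (adjusted p = 0.000245). FDPS, farnesyl diphosphate synthase, was at 242 and 255 CPM against 169 and 173, a change of -0.53 ± 0.12 (adjusted p = 0.00488). For these enzymes both ETV4AAA libraries lay below both controls. The kinases MVK (-0.48) and PMVK (-0.64), the decarboxylase MVD (-0.42) and the isomerase IDI1 (-0.35) had log2 changes below 0 that did not pass, with adjusted p from 0.0627 to 0.524. These 4 were, after removal of the GC trend, at -0.53, -0.70, -0.50 and -0.35 and passed, with adjusted p of 3.09e-05, 1.54e-05, 0.0049 and 0.0127. The summed level of the 7 enzymes was 947 and 988 CPM with eGFP and 604 and 641 with ETV4AAA.

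Of the 11 enzymes from squalene to cholesterol, 2 fell, and 6 passed as lower with the GC trend removed. FDFT1 was at 1250.7 and 1327 CPM with eGFP and at 865 and 927 with ETV4AAA, a log2 change of -0.52 ± 0.11 (adjusted p = 0.00378). EBP, the sterol isomerase, was at 276 and 249.6 CPM against 149 and 153, a change of -0.80 ± 0.19 (adjusted p = 0.00621). The EBP call was lost without eGFP replicate 1 or without ETV4AAA replicate 1, with adjusted p up to 0.0601. LSS, lanosterol synthase, was at 185 and 131 CPM against 104 and 80.1, so the groups did not overlap, but its change of -0.78 ± 0.31 did not pass (adjusted p = 0.0733). SQLE, the squalene epoxidase, was at 82.0 and 88.7 CPM against 67.3 and 74.9 (-0.26 ± 0.12, adjusted p = 0.123). HSD17B7, SC5D, TM7SF2 and CYP51A1 overlapped between the groups. The 4 that passed with the GC trend removed were LSS (-0.82), DHCR7 (-0.47), MSMO1 (-0.34) and SQLE (-0.28), with adjusted p from 1.63e-05 to 0.0151.

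STARD4, a carrier that moves cholesterol between membranes, rose: it was at 46.4 and 53.1 CPM with eGFP and at 65.7 and 73.6 with ETV4AAA, a log2 change of 0.48 ± 0.15 (adjusted p = 0.0261). It lost its call without eGFP replicate 1, without ETV4AAA replicate 2 or with upper-quartile scaling, with adjusted p up to 0.158. LPL rose from 4.08 and 4.55 CPM to 17.0 in both ETV4AAA libraries, which is 3.94-fold, with a log2 change of 1.98 ± 0.23 (adjusted p = 6.02e-05). Neither of these 2 genes encodes a synthetic enzyme.

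Of the 8 fatty acid enzymes, 4 fell. SCD was at 2384 and 2542 CPM with eGFP and at 1046 and 1015 with ETV4AAA, a log2 change of -1.26 ± 0.11 (adjusted p = 5.16e-06). ELOVL6, which lengthens palmitate to stearate, was at 113 and 135 CPM against 58.3 and 67.2, a change of -0.98 ± 0.14 (adjusted p = 0.000228). FADS1, a desaturase of long polyunsaturated fatty acids, was at 281 and 317 CPM against 186 and 199, a change of -0.64 ± 0.11 (adjusted p = 0.000778). ACACA, the carboxylase that makes malonyl-CoA, was at 274 and 294 CPM against 191 and 178, a change of -0.62 ± 0.12 (adjusted p = 0.00235). All 4 kept their call in each of the 13 other fits of this comparison. FASN, the fatty acid synthase, was at 509 and 275 CPM with eGFP and at 366 and 223 with ETV4AAA. The groups overlapped, and its change was -0.41 ± 0.50 (adjusted p = 0.579). With the GC trend removed it was -0.49 and passed (adjusted p = 0.0235), as did ACLY at -0.38 (adjusted p = 0.00385). FADS2 stood at 212 and 177 CPM against 252 and 222, a change of 0.28 ± 0.24 (adjusted p = 0.416), although it lies next to FADS1.

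**Figure D2:**
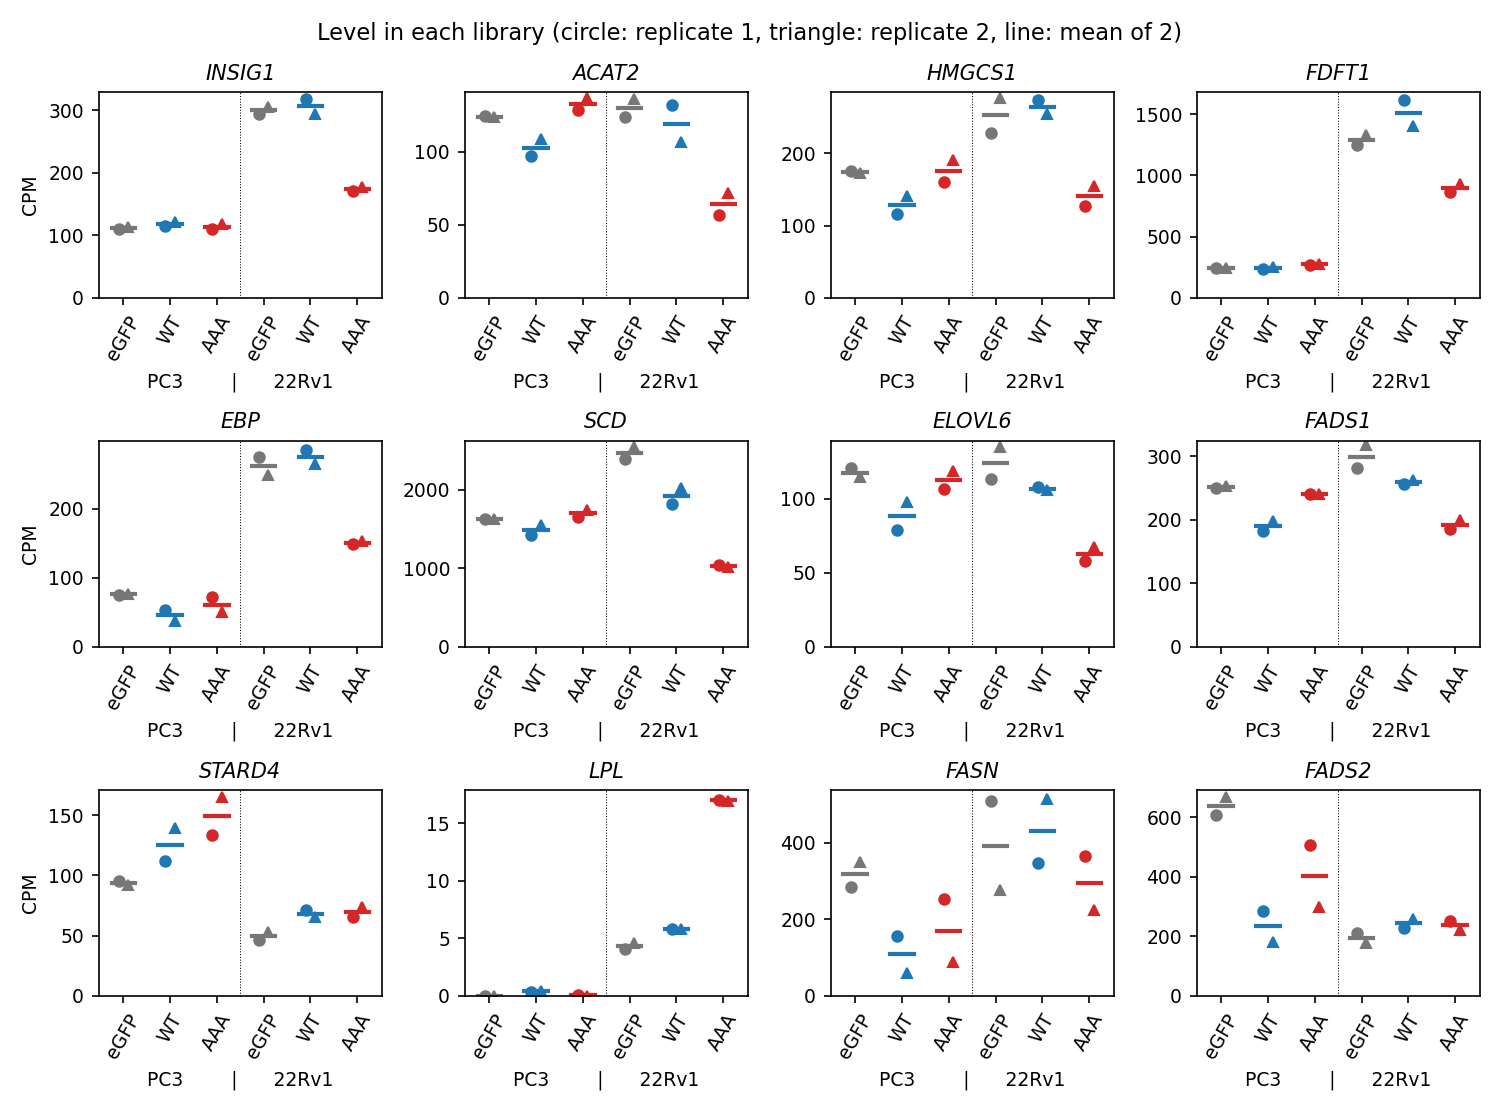
CPM of 12 of the 33 genes in every library, with 1 panel per gene, circles for replicate 1, triangles for replicate 2 and a line at the mean of 2. SCD falls from 2384 and 2542 CPM in 22Rv1 eGFP to 1046 and 1015 with ETV4AAA, while the 2 libraries of FASN in the same groups, 509 and 275 against 366 and 223, overlap.

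In 22Rv1 the number of genes called with ETV4AAA grew when the GC trend was removed, to 22 lower and 2 higher of the 33. The share of all genes called grew too, from 31.8% to 46.4%, and 23.1% were then lower. The change of the 33 genes had a Spearman correlation of -0.107 with GC content, so these changes had little order by GC. Without each library in turn 10 to 12 of the 33 were called.

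With ETV4WT in 22Rv1, 0 of the 33 genes passed in edgeR's test, and 1.50% of all genes did, 1.06% higher and 0.439% lower. At an unadjusted p under 0.05 there were 3, of which 1 was higher and 2 lower. DESeq2 and limma-voom called 0 as well, and 5 passed with the GC trend removed, when 10.2% of all genes did. The median log2 change of the 33 was 0.14 against 0.01 for all genes. SCD was at 2384 and 2542 CPM with eGFP and at 1820.1 and 2024 with ETV4WT. These libraries did not overlap, and the change was -0.36 ± 0.11 (adjusted p = 0.171). STARD4 was at 46.4 and 53.1 CPM against 71.5 and 65.1, again without overlap, and its change was 0.46 ± 0.15 (adjusted p = 0.183). All 11 squalene and sterol enzymes had a log2 change above 0, from 0.07 for EBP to 0.56 for CYP51A1, and none passed. With the GC trend removed STARD4 (0.505), IDI1 (0.36), MSMO1 (0.35) and TM7SF2 (0.33) passed as higher and SCD (-0.36) as lower. The Spearman correlation of the change with GC content over the 33 genes went from -0.052 to -0.358 with that removal. These calls are thus not free of order by GC content.

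ETV4AAA was also set against ETV4WT in 22Rv1, which asks where the mutated and wild-type factors differ. There were 14 of the 33 genes lower and 1, LPL, higher with ETV4AAA. These 15 are 45.5% of the 33, against 23.5% of all genes called in either direction, and 9.62% of all genes were called lower. The median log2 difference was -0.55 against -0.03 for all genes. In 27 of the 33 genes both ETV4AAA libraries were below both ETV4WT libraries. The share of all genes tested that did so was not counted, so this count has no background and supports no statement.

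The 14 lower genes came from each synthetic branch. Besides INSIG1 (-0.81 ± 0.10), they held 5 of the 7 mevalonate and isoprenoid enzymes: HMGCS1 (-0.90), ACAT2 (-0.89), PMVK (-0.88), IDI1 (-0.69) and FDPS (-0.63). IDI1, which makes dimethylallyl diphosphate, was at 199 and 149 CPM with ETV4WT and at 97.9 and 118 with ETV4AAA (adjusted p = 0.0113). PMVK, phosphomevalonate kinase, was at 116 and 105 CPM against 64.8 and 55.3 (adjusted p = 0.0195), and it lost its call without any 1 of the 4 libraries, with adjusted p up to 0.151. Of the sterol enzymes, FDFT1 (-0.75), EBP (-0.87), MSMO1 (-0.68), NSDHL (-0.49) and SQLE (-0.40) were lower. MSMO1 and NSDHL take part in the removal of methyl groups from sterols made from lanosterol. MSMO1 was at 252 and 203 CPM with ETV4WT and at 127 and 156 with ETV4AAA (adjusted p = 0.0111). The fatty acid enzymes that were lower were SCD (-0.90), ELOVL6 (-0.77) and FADS1 (-0.43). LPL was at 5.83 and 5.84 CPM with ETV4WT and at 17.0 with ETV4AAA, 2.91-fold higher (adjusted p = 0.000432). Without ETV4AAA replicate 1 the count of genes called fell to 8 and without ETV4WT replicate 1 to 10. The former removed the calls of PMVK, IDI1, SQLE, MSMO1, NSDHL, EBP and FADS1. With the GC trend removed 25 were lower and 1 higher, when 18.1% of all genes were lower.

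**Figure D3:**
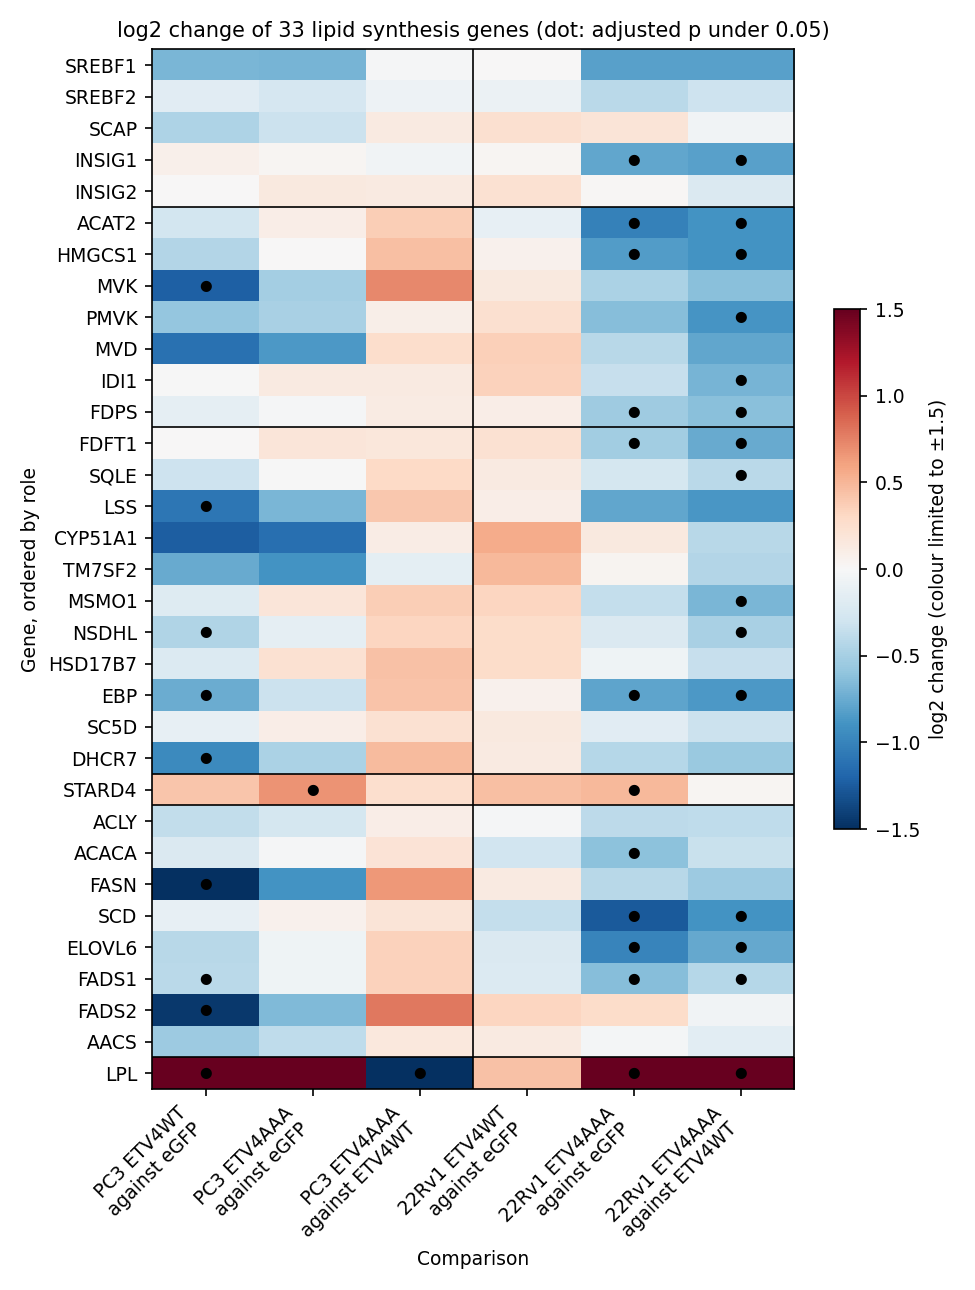
Colour gives the log2 change of each of the 33 genes (rows, by role) in 6 comparisons (columns), limited to ±1.5, and a dot marks an adjusted p under 0.05. The column of ETV4AAA against ETV4WT in 22Rv1 has 14 dots on blue and 1, LPL, on red, while the column of ETV4WT against eGFP in 22Rv1 has 0 dots.

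In PC3, the libraries labelled ETV4WT had lower levels of FASN (2.92-fold), FADS2 (2.73-fold), MVK (2.34-fold), LSS (2.12-fold), DHCR7 (1.93-fold), EBP (1.67-fold), NSDHL (1.37-fold) and FADS1 (1.33-fold) than eGFP, and LPL was higher. These 9 genes are 27.3% of the 33, near the 23.4% of all genes tested. The 8 lower ones are 24.2%, against 10.7% of all genes. The median log2 change was -0.41 against 0.00, and LPL at its bound leaves that median as it is. Upper-quartile scaling moved the median change of all genes by 0.12, and under it 6 of the 33 were lower and 2 higher. In 24 of the 33 genes both libraries labelled ETV4WT lay below both eGFP libraries, but the share of all genes tested that did so was not counted. That count therefore supports no statement. Without replicate 2 of both constructs 7 genes were called, 6 lower and 1 higher, when 16.6% of all genes were called.

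FADS2 had the lowest adjusted p of the 8 among the 33 that fell. It was at 607 and 667 CPM with eGFP and at 284 and 183 in the libraries labelled ETV4WT, a log2 change of -1.45 ± 0.24 (adjusted p = 0.00124). Without replicate 2 of both constructs, which leaves 1 library per construct, the change was -1.07. MVK, mevalonate kinase, was at 25.5 and 28.8 CPM against 13.8 and 9.45, a change of -1.23 ± 0.23 (adjusted p = 0.00251), and -0.89 without those libraries. Both genes passed in each of the 14 other fits of this comparison, some of which leave 1 library in a group. DHCR7, which makes the last step to cholesterol, was at 205 and 235 CPM against 138 and 89.6, a change of -0.95 ± 0.24 (adjusted p = 0.0135). It was -0.58 without replicate 2 of both constructs. EBP was at 75.3 and 77.3 CPM against 54.0 and 37.3, a change of -0.74 ± 0.19 (adjusted p = 0.0139), and -0.41 without those libraries. For each of these genes the groups did not overlap, and the library labelled ETV4WT replicate 2 was lower than replicate 1. DHCR7 lost its call without eGFP replicate 2 or ETV4WT replicate 2, and EBP also without eGFP replicate 1, with adjusted p up to 0.115 and 0.12.

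FASN, LSS, FADS1 and NSDHL each lost their call without at least 1 single library. FASN was at 284 and 350.4 CPM with eGFP, at 157 in the library labelled ETV4WT replicate 1 and at 60.6 in replicate 2. Its change was -1.55 ± 0.51 (adjusted p = 0.0471), and without replicate 2 of both constructs -0.93 (adjusted p = 0.0819). LSS was at 61.8 and 72.2 CPM against 40.8 and 22.4, a change of -1.09 ± 0.31 (adjusted p = 0.0254), and -0.63 without them (adjusted p = 0.0521). FADS1 was at 251 and 253 CPM against 182 and 198, with a change of -0.41 ± 0.11 (adjusted p = 0.0174), and NSDHL at 56.9 and 59.4 against 45.8 and 39.4, with -0.45 ± 0.13 (adjusted p = 0.0307). Without those libraries their adjusted p were 0.0671 and 0.242. In that fit, with 1 library per construct, HMGCS1 was at -0.50 and ELOVL6 at -0.49. SREBF1 was at 71.9 and 80.9 CPM with eGFP and at 62.0 and 33.2, a change of -0.68 ± 0.36 (adjusted p = 0.193), and -0.21 without those libraries (adjusted p = 0.639). Leaving out 1 library at a time gave 4 genes without eGFP replicate 1, 3 without eGFP replicate 2, 14 without ETV4WT replicate 1 and 6 without ETV4WT replicate 2.

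The change in these PC3 libraries followed GC content, with a Spearman correlation of -0.708 over the 33 genes and -0.316 over all genes. With the trend removed, FASN was at -0.95, FADS2 at -0.95, MVK at -0.78, LSS at -0.72, EBP at -0.58 and DHCR7 at -0.57, and all passed. SREBF1 went from -0.68 to -0.04. There were then 16 genes lower and 2 higher, among them HMGCS1 (-0.57, adjusted p = 6.63e-05) and ELOVL6 (-0.53, adjusted p = 7.97e-05), when 33.9% of all genes were called and 16.0% were lower. The correlation of the change with GC content was then -0.174.

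**Figure D4:**
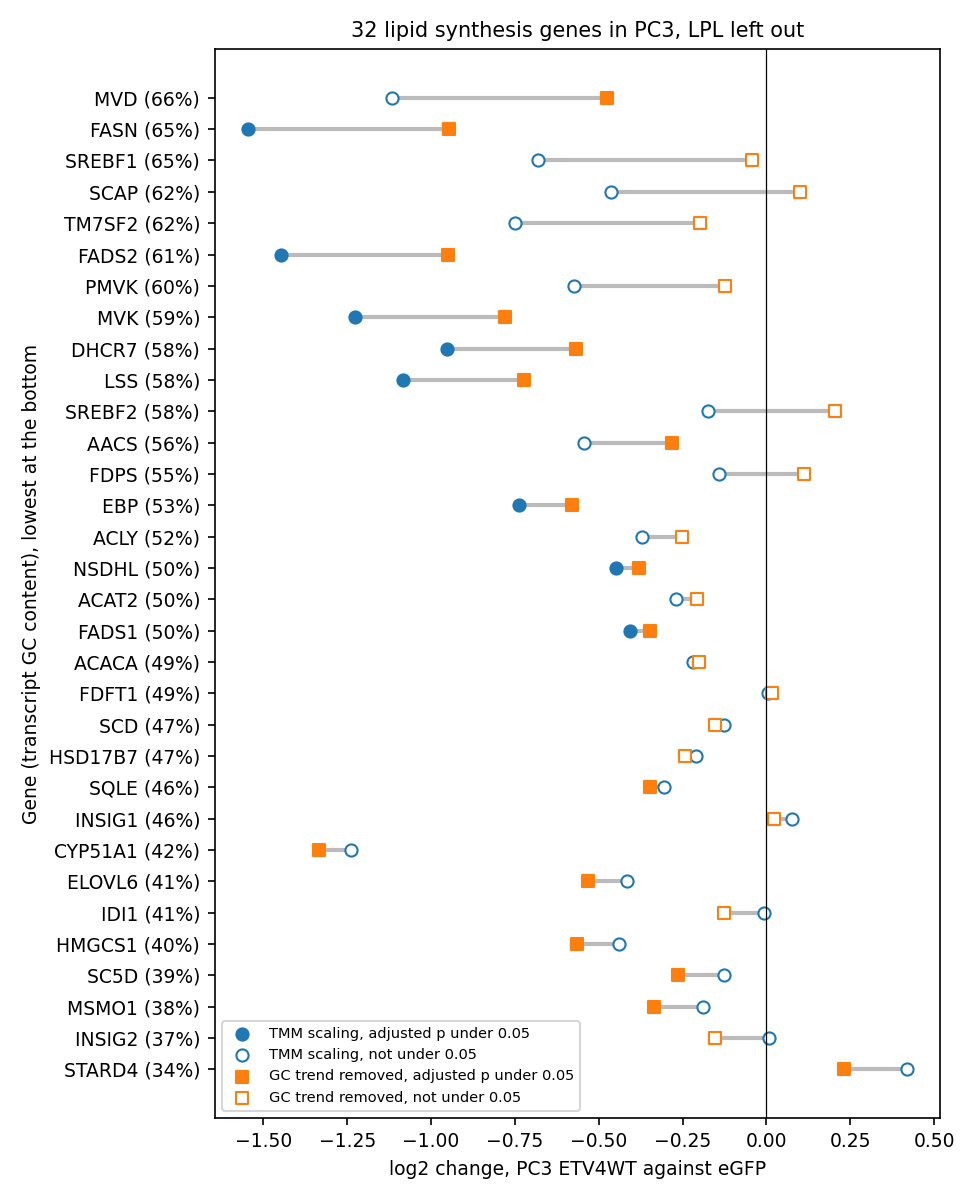
The x axis is the log2 change in PC3 libraries labelled ETV4WT against eGFP for 32 genes, LPL left out, and genes are ordered by transcript GC content (%), lowest at the bottom. Circles are TMM scaling, squares are values with the GC trend removed and filled symbols have an adjusted p under 0.05. FASN moves from -1.55 to -0.95 and SREBF1 from -0.68 to -0.04, while FADS1 stays at -0.41 and -0.35.

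LPL in PC3 rested on few counts. It had 0 counts in the eGFP libraries together and 40 in those labelled ETV4WT, at 0.372 and 0.402 CPM, so with the eGFP group set to that limit of 3 counts it was at least 12.4-fold higher (adjusted p = 0.000394). The exact 95% interval of that ratio began at 9.62. The libraries labelled ETV4AAA had 4 counts together. Between the constructs the ratio was 0.114 with a 95% exact interval of 0.0297 to 0.317, which covers counting error only. The fitted log2 changes of this gene depend on a prior count and are no bound.

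The libraries of PC3 labelled ETV4AAA differed from eGFP in 1 of the 33 genes, STARD4, when 3.69% of all genes were called, 2.45% higher and 1.24% lower. STARD4 was at 95.4 and 92.4 CPM with eGFP and at 134 and 165 in the libraries labelled ETV4AAA, without overlap, and its log2 change was 0.67 ± 0.15 (adjusted p = 0.0272). Without replicate 2 of both constructs it was 0.51 (adjusted p = 0.0927), and 0 genes were called. At an unadjusted p under 0.05 there were 2 higher and 4 lower genes in edgeR's test, and DESeq2 and limma-voom each called 1, which was higher. The fit without ETV4AAA replicate 1 gave 11 lower genes, among them FASN, FADS2 and MVD, and 1 higher. In the 2 ETV4AAA libraries FASN was at 252 and 89.1 CPM and MVD at 27.1 and 9.28, the lower value in each case being replicate 2, the library with ETV4 at 109 CPM. The change followed GC content with a Spearman correlation of -0.781. Without eGFP replicate 1 or 2, or without ETV4AAA replicate 2, 0 genes were called. After removal of the GC trend 2 passed, STARD4 and, as lower, TM7SF2 (-0.45, adjusted p = 0.0094). The correlation of the change with GC content was still -0.428 after that removal.

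Between the constructs in PC3, 1 of the 33 genes, LPL, passed as lower in the libraries labelled ETV4AAA, when 11.0% of all genes were called, 3.65% higher and 7.32% lower. The log2 difference was above 0 for 28 of the 33. In edgeR's test 0 genes were higher, with 11 at an unadjusted p under 0.05, and DESeq2 and limma-voom called 2 and 1 higher. The median log2 difference was 0.22 against 0.00. FADS2 was at 284 and 183 CPM under the ETV4WT label and at 507 and 299 under the ETV4AAA label, a difference of 0.79 ± 0.24 (adjusted p = 0.0574). MVK was at 13.8 and 9.45 CPM against 23.0 and 15.1 (0.72 ± 0.23, adjusted p = 0.0694), and HMGCS1 at 116 and 141 against 160.1 and 191 (0.45 ± 0.15, adjusted p = 0.0841). In each case the groups did not overlap. With the GC trend removed, FADS2 (0.71), MVK (0.65), HMGCS1 (0.44) and 11 other genes passed as higher, when 24.2% of all genes were called. Without replicate 2 of both constructs 1, FADS2 (adjusted p = 0.0179), was higher and 1 lower. Without ETV4AAA replicate 2 there were 3 called and without ETV4WT replicate 1 there were 4.

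The lines differed in how ETV4AAA compared with ETV4WT. An interaction test asks whether this difference in 22Rv1 is other than that in PC3, and 17 of the 33 genes were lower and 1 higher on this scale. That is 54.5% of the 33, against 21.0% of all genes, and 7.94% of all genes were lower. HMGCS1 differed by 0.45 in PC3 and by -0.90 in 22Rv1, an interaction of -1.35 ± 0.21 (adjusted p = 0.000793). EBP differed by 0.42 and -0.87 (-1.29 ± 0.26, adjusted p = 0.00427), and ACAT2 by 0.37 and -0.89 (-1.26 ± 0.21, adjusted p = 0.00105). ELOVL6 had an interaction of -1.12 ± 0.20 and SCD of -1.09 ± 0.16, with adjusted p of 0.00176 and 0.00043. The median over the 33 was -0.80 and over all genes 0.02, and 32 of 33 were below 0. Without replicate 2 of both PC3 constructs, which leaves 1 library in each PC3 construct group, the median over the 33 was -0.71 and over all genes 0.09. Removal of the GC trend gave 25 lower and 1 higher, when 7943 of the 23238 genes tested were called. Without ETV4AAA replicate 1 of 22Rv1 the count was 12.

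**Figure D5:**
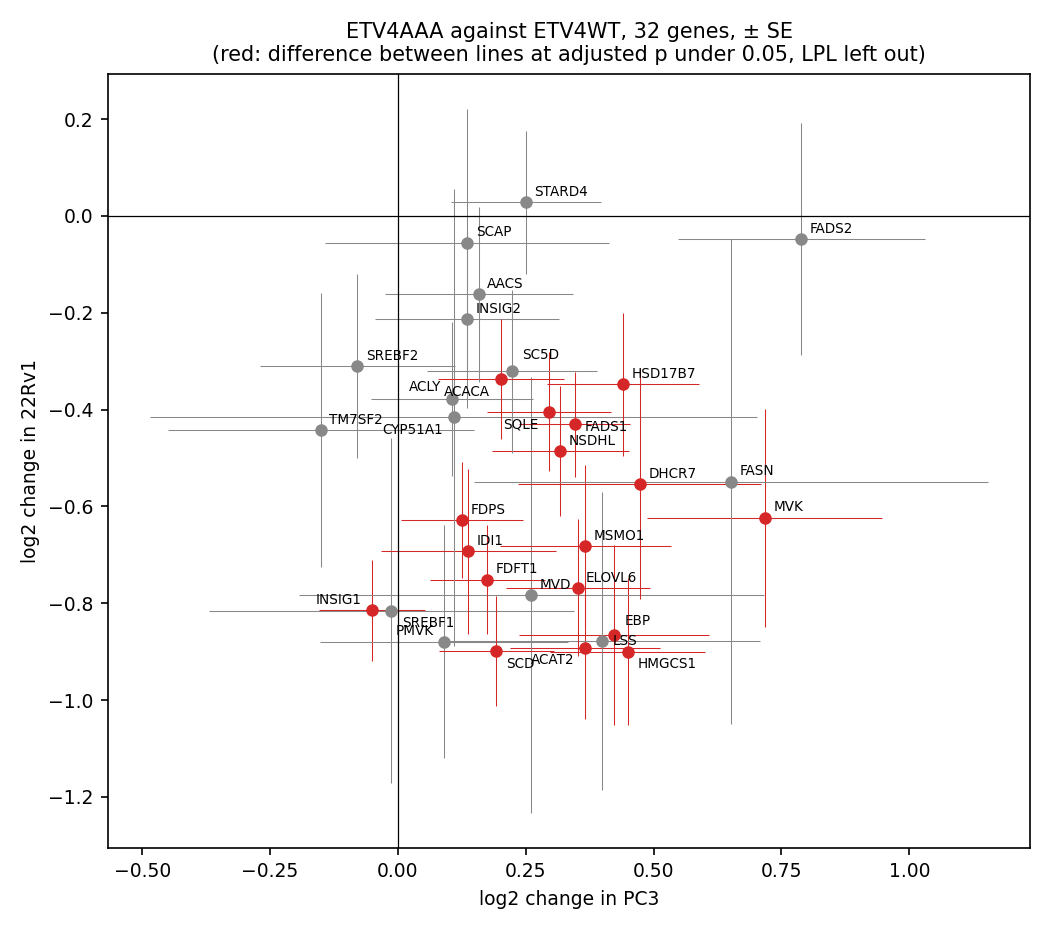
Each point is 1 of 32 genes, with the log2 difference of ETV4AAA from ETV4WT in PC3 on the x axis and in 22Rv1 on the y axis, and bars give ± SE. Red points passed the test of the difference between lines: HMGCS1 lies at 0.45 and -0.90, while FADS2, in grey, lies at 0.79 and -0.05.

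The effect of ETV4AAA against eGFP was lower in 22Rv1 than in PC3 for 8 genes and higher for 0. That is 24.2% of the 33, against 16.2% of all genes, when 6.73% of all genes were lower and 9.48% higher. At an unadjusted p under 0.05 the edgeR test gave 2 higher and 10 lower, and DESeq2 and limma-voom each called 9 lower and 0 higher. The 8 genes were SCD (0.07 in PC3, -1.26 in 22Rv1), ACAT2 (0.10, -1.02), ELOVL6 (-0.06, -0.98), HMGCS1 (0.01, -0.84), INSIG1 (0.03, -0.78), FDFT1 (0.18, -0.52), ACACA (-0.02, -0.62) and FADS1 (-0.06, -0.64). The count was 4 without either eGFP library of PC3, 5 without eGFP replicate 2 or ETV4AAA replicate 1 of 22Rv1, and 12 without ETV4AAA replicate 1 of PC3. INSIG1, ACAT2, SCD and ELOVL6 passed in each of the 17 other fits. Leaving out replicate 2 of both PC3 constructs, 9 were lower and 1, FADS2 (0.63, adjusted p = 0.0363), was higher. That fit shared 7 of the 8 calls, lost ACACA (adjusted p = 0.0525) and added FDPS and EBP. The fit without the GC trend had 14 lower and 2 higher, FADS2 (0.45) and TM7SF2 (0.42), when 28.2% of all genes were called.

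The effect of ETV4WT differed between the lines in 4 of the 33 genes, or 12.1%, near the 12.5% of all genes, of which 4.92% were higher and 7.57% lower in 22Rv1. FADS2 changed by -1.45 in PC3 and 0.33 in 22Rv1, a difference of 1.78 ± 0.34 (adjusted p = 0.00539). MVK (-1.23 and 0.15) and NSDHL (-0.45 and 0.27) had differences of 1.37 and 0.72, with adjusted p of 0.0163 and 0.0283. LPL had the opposite sign, and its difference has no reliable size because PC3 eGFP held 0 counts. Without eGFP replicate 2 of 22Rv1, 1 gene was called, and 2 were called without either ETV4WT library of 22Rv1, eGFP replicate 2 of PC3 or ETV4WT replicate 2 of PC3. Without ETV4WT replicate 1 of PC3 there were 11, and without replicate 2 of both PC3 constructs 5, of which 3 were among the 4. NSDHL was then lost (adjusted p = 0.077), and TM7SF2 (0.83) and DHCR7 (0.70) passed. The fit without the GC trend had 17 higher and 2 lower, when 24.2% of all genes were called. The 17 held 10 of the 11 sterol enzymes and 4 of the 7 mevalonate and isoprenoid enzymes, among them MSMO1 (0.69, adjusted p = 0.0013), DHCR7 (0.61, adjusted p = 0.00121) and HMGCS1 (0.65, adjusted p = 0.00101).

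Other genes of lipid metabolism were taken from 6 lists of 97 genes, of which 95 were tested. Their counts are read against all genes tested, of which 31.8% were called with ETV4AAA in 22Rv1 (17.4% higher, 14.4% lower) and 23.4% in the PC3 libraries labelled ETV4WT (12.7% higher, 10.7% lower). In 22Rv1 the share with ETV4AAA was 46.4% with the GC trend removed. Of 9 genes that process SREBP factors, 3 rose and 2 fell with ETV4AAA in 22Rv1 against eGFP, which is 55.6%, beside 31.8% of all genes. PAQR3, a Golgi protein reported to tether SCAP there, was at 11.9 and 12.6 CPM with eGFP and at 70.3 and 79.0 with ETV4AAA (log2 change 2.61, adjusted p = 3.36e-07). SPRING1, which supports cleavage by the site-1 protease, was at 92.2 and 89.9 CPM against 277 and 259 (1.56, adjusted p = 4.82e-07). MBTPS1, the site-1 protease itself, changed by 0.51 and ERLIN1, which takes part in sterol-dependent degradation, by -0.56. Neither PAQR3 nor SPRING1 passed with ETV4WT in 22Rv1, and SPRING1 alone of these 9 passed in the PC3 libraries labelled ETV4AAA, at 0.46 (adjusted p = 0.0341), when 3.69% of all genes did. It was at 0.49 without replicate 2 of both PC3 constructs and did not pass (adjusted p = 0.0518).

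Of 17 genes of sterol uptake, transport, storage and export, 7 rose and 3 fell with ETV4AAA in 22Rv1, which is 58.8%, beside 31.8% of all genes, and 10 and 5 with the GC trend removed. GRAMD1C, a sterol carrier at membrane contacts, changed by 2.70, and its relative GRAMD1B went from 1 count in each eGFP library to 75 and 86 counts. ABCG1, a sterol exporter, was at 2.95 and 2.41 CPM with eGFP and at 8.03 and 6.60 with ETV4AAA (log2 change 1.45, adjusted p = 0.000116). VLDLR, a lipoprotein receptor, changed by 1.10. In PC3 libraries labelled ETV4WT 4 rose and 5 fell (52.9%, beside 23.4% of all genes). GRAMD1B was at 62.3 and 63.0 CPM with eGFP against 194 and 191 (1.62, adjusted p = 1.04e-05). Its log2 change was 1.72 without replicate 2 of both constructs, which leaves 1 library per construct.

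Of 25 tested genes in the list of other fatty acid enzymes, 5 rose and 1 fell with ETV4AAA in 22Rv1, which is 24%, below the 31.8% of all genes, and 7 and 7 with the GC trend removed. SCD5, a second stearoyl-CoA desaturase, rose from 0.554 and 0.556 CPM to 3.17 and 3.16 (log2 change 2.51, adjusted p = 4.36e-07) while SCD fell from far higher levels. ACSS2, which makes acetyl-CoA from acetate, was at 115 and 108 CPM against 301 and 276 (1.37, adjusted p = 6.34e-06), and ELOVL1, which lengthens very long chains, changed by -0.67. In PC3 libraries labelled ETV4WT 5 rose and 3 fell (32%, beside 23.4% of all genes), with ELOVL7 at 3.07 and ELOVL2 at 2.73. In the fit without replicate 2 of both constructs, which leaves 1 library per construct, ELOVL2 was at 2.69. Of 14 glycerolipid and lipid droplet genes, 2 rose and 2 fell with ETV4AAA in 22Rv1, which is 28.6%, near the 31.8% of all genes, and 4 and 4 with the GC trend removed. MGLL, a monoglyceride lipase, was at 6.17 and 5.17 CPM against 71.7 and 57.4 (3.51, adjusted p = 5.25e-07), and DGAT2, which makes triglyceride, was at 21.9 and 19.4 CPM against 7.57 and 7.62 (-1.44, adjusted p = 7.57e-05).

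Of 19 fatty acid oxidation genes, 2 rose and 5 fell with ETV4AAA in 22Rv1, which is 36.8%, near the 31.8% of all genes, and 4 and 7 with the GC trend removed. PDK4, a kinase that restrains pyruvate oxidation, was the 1 gene of the 6 lists that passed with ETV4WT in 22Rv1, when 1.50% of all genes did. PDK4 was at 27.5 and 30.9 CPM with eGFP, at 61.9 and 65.6 with ETV4WT and at 95.2 and 89.4 with ETV4AAA, with log2 changes of 1.13 and 1.66 against the shared eGFP libraries. CPT1A, which admits fatty acids to the mitochondrion, was at 187 and 183 CPM in PC3 eGFP and at 91.7 and 88.6 in the libraries labelled ETV4WT (-1.04, adjusted p = 0.000139). Its change was -0.92 without replicate 2 of both constructs. Of 11 tested other isoprenoid enzymes, 2 fell with ETV4AAA in 22Rv1, PDSS1 and COQ2, which serve ubiquinone synthesis. That is 18.2%, below the 31.8% of all genes, and with the GC trend removed 3 rose and 2 fell.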

How the data were processed

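The submitters checked reads with FastQC 0.11.9 and aligned them with STAR 2.5.3a to GRCh38, per the submitters' processing notes. The counting program, its strand setting and its annotation were not given in the sources used here. What the authors deposited is 1 table of raw counts by Ensembl gene with 12 library columns, all matched by name (0 columns unused). Symbols, exon lengths, overlaps and GC content come from GENCODE 29, and promoters from RefSeq (GRCh38.p14).

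In R 4.3.3, filterByExpr kept 23238 genes, TMM scaled the libraries, and edgeR 4.0.16 fitted quasi-likelihood models with 1 mean per group to all 12 libraries (6 residual degrees of freedom, biological coefficient of variation 0.149). For the 10 comparisons, a gene was called at a p under 0.05 after Benjamini-Hochberg adjustment across the 23238 genes. SE is the log2 change divided by the root of F. CPM and RPKM were computed with TMM-scaled library sizes. The method was tested on simulated data. Alternatives used DESeq2 1.42.0, limma 3.58.1 (voom), other filters and factors, a replicate block, left-out libraries and removal of a GC trend, the last chosen after seeing the data.

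Every one of the 33 genes could be named. From each companion list and comparison, at most 4 called genes, by adjusted p, and at most 2 uncalled ones, by level, could be named. The members and lists were chosen with earlier results of these data known. Intervals and floors cover counting error only, since reads carry no molecular identifiers.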

Additional observations from a re-analysis of the deposited data

Results flagged for a closer look

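Each of the following differences between 22Rv1 and PC3 passed an interaction test in edgeR at an adjusted p under 0.05, and the values are 22Rv1 minus PC3 on the log2 scale. For ETV4WT against eGFP they were 1.37 for MVK, 0.72 for NSDHL, 1.78 for FADS2 and -6.77 for LPL, the last of no reliable size because PC3 eGFP held 0 counts. For ETV4AAA against eGFP they were -0.81 for INSIG1, -1.11 for ACAT2, -0.85 for HMGCS1, -0.70 for FDFT1, -0.60 for ACACA, -1.32 for SCD, -0.92 for ELOVL6 and -0.57 for FADS1. For ETV4AAA against ETV4WT they were -0.76 for INSIG1, -1.26 for ACAT2, -1.35 for HMGCS1, -1.34 for MVK, -0.83 for IDI1, -0.75 for FDPS and -0.93 for FDFT1. In that contrast SQLE was at -0.70, MSMO1 at -1.05, NSDHL at -0.80, HSD17B7 at -0.79, EBP at -1.29 and DHCR7 at -1.03. ACACA was at -0.54, SCD at -1.09, ELOVL6 at -1.12, FADS1 at -0.78 and LPL at 4.60. Replicate 2 of the PC3 construct or constructs in each contrast, which had ETV4 below eGFP, enters these values. Its part was tested only by leaving both libraries out, which leaves 1 library in each PC3 construct group. For ETV4AAA against ETV4WT 17 genes then passed in place of 18, with 14 shared, and IDI1, SQLE, HSD17B7 and ACACA were lost. For ETV4WT against eGFP 5 passed in place of 4, with 3 shared, and NSDHL was lost. For ETV4AAA against eGFP 10 passed in place of 8, with 7 shared, and ACACA was lost.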

How the results depend on the processing

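Single-gene results kept their side of the threshold in 4319 cases under another setting, of which 4081 also kept their direction and 238, never past the threshold, changed sign. They passed it newly in 269, lost it in 161 and reversed in 3. The 3 reversals came with the GC trend removed: SREBF2 in the ETV4WT effect between lines at -0.381, MVK in the ETV4AAA effect between lines at -0.4 and DHCR7 between the eGFP groups at 0.276. Their cause was not tested. For the eGFP groups that fit leaves a GC trend between the lines. Each other count is of the 33 genes unless genes in all are named.

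Removing the GC trend gave 18 genes in PC3 ETV4WT against eGFP, 2 in PC3 ETV4AAA against eGFP, 15 in PC3 ETV4AAA against ETV4WT, 5 in 22Rv1 ETV4WT against eGFP, 24 in 22Rv1 ETV4AAA against eGFP and 26 in 22Rv1 ETV4AAA against ETV4WT. Between lines it gave 19 for the ETV4WT effect and 16 for the ETV4AAA effect. Genes in all then numbered 1977, 5614, 2376 and 8778 for PC3 ETV4AAA against eGFP and against ETV4WT, 22Rv1 ETV4WT against eGFP and 22Rv1 ETV4AAA against ETV4WT, and 5631, 6557 and 7943 for the 3 differences between lines. With no low-count filter there were 8 genes (2152 in all) in PC3 ETV4AAA against eGFP, 4 in PC3 ETV4AAA against ETV4WT, 11 (4436 in all) for the ETV4WT effect between lines and 904 in all in 22Rv1 ETV4WT against eGFP. Fitting each line on its own gave 4, 0 and 0 genes in the PC3 comparisons with eGFP (ETV4WT, ETV4AAA) and of ETV4AAA against ETV4WT, with 466 and 1657 in all for the last 2. In PC3 ETV4AAA against ETV4WT, DESeq2 size factors gave 2, the DESeq2 Wald test 3 and limma-voom 2. Without replicate 2 of both PC3 constructs it gave 2 (1341 in all), and PC3 ETV4AAA against eGFP gave 0.

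Replicate numbers do not pair the libraries in every group. The correlations of same-numbered deviations in PC3 were -0.103 (eGFP with ETV4WT), -0.098 (eGFP with ETV4AAA) and 0.494 (ETV4WT with ETV4AAA). In 22Rv1 they were -0.149, 0.212 and -0.141 in the same order. Over the lipid genes alone they were -0.838, -0.782 and 0.858 in PC3 and -0.732, 0.929 and -0.784 in 22Rv1. Same-numbered ETV4WT and ETV4AAA libraries of PC3 thus deviated together, which the fit without a replicate block leaves out. So did the eGFP and ETV4AAA libraries of 22Rv1 over the lipid genes (0.929), and less over all genes (0.212). With a replicate block there were 16 genes in PC3 ETV4WT against eGFP, 2 in PC3 ETV4AAA against eGFP, 3 in PC3 ETV4AAA against ETV4WT and 12 for the ETV4WT effect between lines. In 22Rv1 the block gave 15 genes in place of 12 for ETV4AAA against eGFP. For ETV4AAA against ETV4WT it gave 18 in place of 15.

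Leaving out 1 library at a time gave 3 to 14 genes (2553 to 6265 in all) in PC3 ETV4WT against eGFP, 0 to 12 (213 to 2253) in PC3 ETV4AAA against eGFP, 1 to 4 (1648 to 1887) in PC3 ETV4AAA against ETV4WT and 0 to 0 (119 to 325) in 22Rv1 ETV4WT against eGFP. It gave 10 to 12 (5259 to 5423) in 22Rv1 ETV4AAA against eGFP, 8 to 14 (3437 to 4172) in 22Rv1 ETV4AAA against ETV4WT and 21 to 22 (14659 to 15467) between the eGFP groups. Between lines it gave 1 to 11 (1425 to 4342) for the ETV4WT effect, 4 to 12 (2317 to 4685) for the ETV4AAA effect and 12 to 19 (3470 to 4534) for ETV4AAA against ETV4WT.

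Upper-quartile scaling shifted the split of genes in all from 2958 higher and 2476 lower to 3724 and 1661 in PC3 ETV4WT against eGFP, from 848 and 1702 to 414 and 2018 in PC3 ETV4AAA against ETV4WT, from 8105 and 8377 to 9917 and 6767 between the eGFP groups, and from 1144 and 1759 to 731 and 2264 for the ETV4WT effect. With 2 libraries a group, low genes such as LPL and CYP51A1 in PC3 rest on few counts.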
